A study of Mus musculus with 8 samples.

Results

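The 10 genes described here, Dbp, Hlf, Tef, Per1, Per2, Per3, Nr1d1, Nr1d2, Clock and Cry1, are core and output genes of the circadian clock. They were taken from a list of names chosen with the signals of these arrays already known, and every probe set whose platform symbol is one of these names and no other gene was used. This gave 25 probe sets of 45037, and 10 genes of 18193. Purkinje cells, the fast-conducting myocytes of the distal conduction system, were set against ventricular working myocytes, with 4 arrays of each. The series' design states that both cell types came from 4 hearts, and arrays of the same replicate number are taken here as 1 heart, which the labels do not spell out. All 8 samples came from adult male mice that carried Cntn2-EGFP, a-MHC-Cre and floxed-tdTomato on a background mixed from CD1, C57/B6 and 129S1, so the reporters are shared by both groups. The a-MHC promoter that drives Cre is active in cardiac myocytes, and the cells were taken by FACS after enzymatic digestion of the perfused heart. The labels used here give no time of day at which a heart was collected, and a difference between hearts is reported only as that.

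The clock of mammalian cells is a feedback loop of transcription. CLOCK, paired with BMAL1 (the product of Arntl), activates genes through E-box sequences, and the period and cryptochrome proteins that it induces repress it in turn. A side loop runs through the nuclear receptors REV-ERB alpha and beta (Nr1d1 and Nr1d2), which repress Arntl, and the loop drives output factors of the PAR bZIP family (Dbp, Hlf and Tef), which bind D-box sequences. Cardiac myocytes hold such a clock of their own. In most mouse tissues the transcripts of Dbp, the period genes and the REV-ERB genes peak in the opposite part of the day from Arntl, Clock and Npas2.

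The labelled cell types were checked by fixed markers. The summed signal of 5 Purkinje markers (Cntn2, Gja5, Pcp4, Slit2 and Scn10a) was 1310, 3653, 7369 and 7082 on the Purkinje arrays of hearts 1 to 4 and 109 to 163 on the ventricular arrays. The 5 genes listed for ventricular myocytes (Myl2, Myh6, Tnni3, Ryr2 and Actn2) gave 34658 to 38029 and 34367 to 44076. These sums overlap, so that list does not separate the cell types here. Cntn2 marked the sorted cells, so its level is no finding. The 5 endothelial markers summed to 1266 to 3927 on Purkinje and 621 to 2125 on ventricular arrays, and the 5 smooth muscle and pericyte markers to 4521 to 8644 and 1583 to 4480, and in 4 of 4 hearts each gene of both lists had its higher signal in Purkinje cells. Fibroblast markers (5 genes) summed to 1747 to 3082 and 980 to 1876, 4 atrial markers to 7680 to 14604 and 618 to 1751, and the 2 of 4 immune markers above the signal limit to 69 to 212 and 69 to 131. In such bulk samples, fewer cells of a type and less RNA per cell cannot be told apart. The Gapdh controls, read at the 3' end over the 5' end, gave ratios of 1.24 to 1.29 on the Purkinje arrays of hearts 1 and 2 and 1.64 to 1.72 on those of hearts 3 and 4, and 1.20 to 1.23 and 1.51 on the ventricular arrays of the same hearts.

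For most of the clock genes, as for most of all genes tested, the range over the 4 hearts was wider than the difference between the cell types. A range over 4 means tends to exceed a difference of 2 means under array noise alone. The comparison therefore does not show that hearts differed more than cell types. All 10 were above the limit for testing, a mean signal of 19.9, and 22 of their 25 probe sets were. Each gene was read from its brightest probe set, and its values were taken to log2. The range over the 4 heart means (each the mean of the Purkinje and ventricular array of 1 heart) ran between 0.55 and 2.16 in these genes, with a median of 1.00, against a median of 0.60 over all 12318 genes tested. The median Purkinje minus ventricular difference of the 10 was 0.09, against 0.05 over all genes. Centring each array on its median moved the median of all genes to -0.35 and turned the sign for Dbp (-0.35), Nr1d1 (-0.29), Per1 (-0.04), Per3 (-0.29) and Cry1 (-0.39), so of these genes no direction between cell types is given. The range between hearts exceeded the difference between cell types in 10 of 10 genes, which held for 77.7% of all genes, and in 7 of the 10 without heart 2. The same heart was highest in both cell types in 7 of 10 genes, against 36.2% of all genes. In 4 of 10 (Dbp, Tef, Per3 and Nr1d2) this was heart 2, against 9.34%. The count of 7 depends on the processing. It became 5 with quantile normalization, 5 with median centring and 3 when each gene's probe sets were averaged. At 3 of 10 it is no higher than the 36.2% of all genes, a share read from brightest probe sets. The same heart was lowest in both cell types in 7 of 10, against 35.5%, and 5 of 10 shared both their highest and lowest heart, against 15.1%. The range passed 1 log2 unit in 5 of 10, against 21.2% of all genes. Since the genes were chosen on these arrays, these counts are given as a description.

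**Figure D1:**
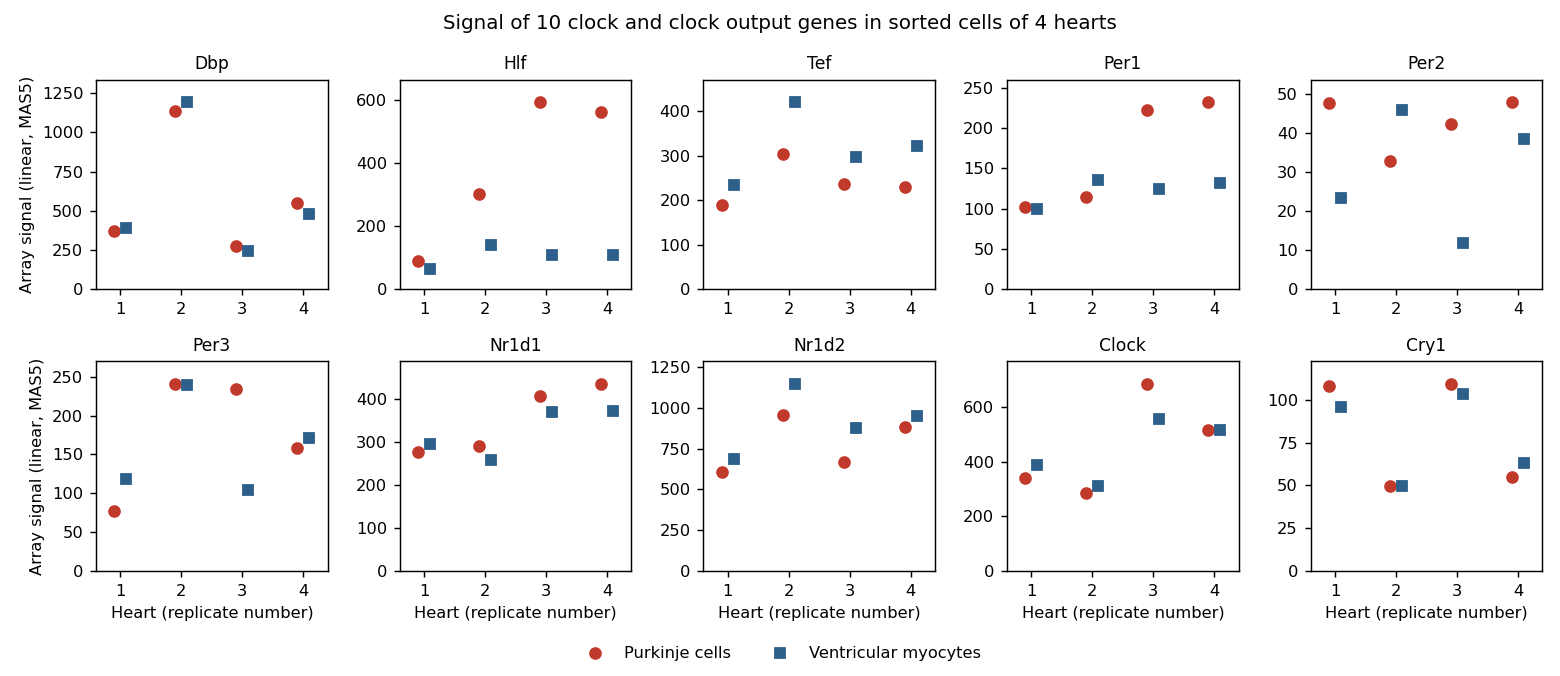
Array signal (linear, MAS5) of the 10 genes, each from its brightest probe set, for the 4 hearts, with Purkinje cells as circles and ventricular myocytes as squares; each point is 1 array. Dbp stood highest in heart 2 in both cell types, at 1133 and 1193, and Hlf lay between 90.8 and 593 on Purkinje arrays and between 62.7 and 141 on ventricular arrays.

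None of the 10 genes passed an adjusted p of 0.05 between the cell types by limma without the heart as a block, where 2.96% of all genes did (1.94% higher and 1.02% lower in Purkinje cells), and in none did the 4 Purkinje arrays lie wholly above or below the 4 ventricular ones, against 12.7% of all genes. With the heart as a block 1 of the 10, Hlf, passed, against 17.1% of all genes. Between hearts, with cell type as a term, 3 of 10 (Dbp, Hlf and Clock) passed limma's moderated F test, against 7.55% of all genes. The range of Hlf rests on heart 1, at 1.75 with it and 0.30 without it. These shares are read no further, because the same arrays chose the genes. The calls between hearts also depend on the variance model: without a mean-variance trend 0 of all genes passed by limma, with 2143 at an unadjusted p under 0.05, and without the cell type term 1 passed, with 1125.

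**Figure D2:**
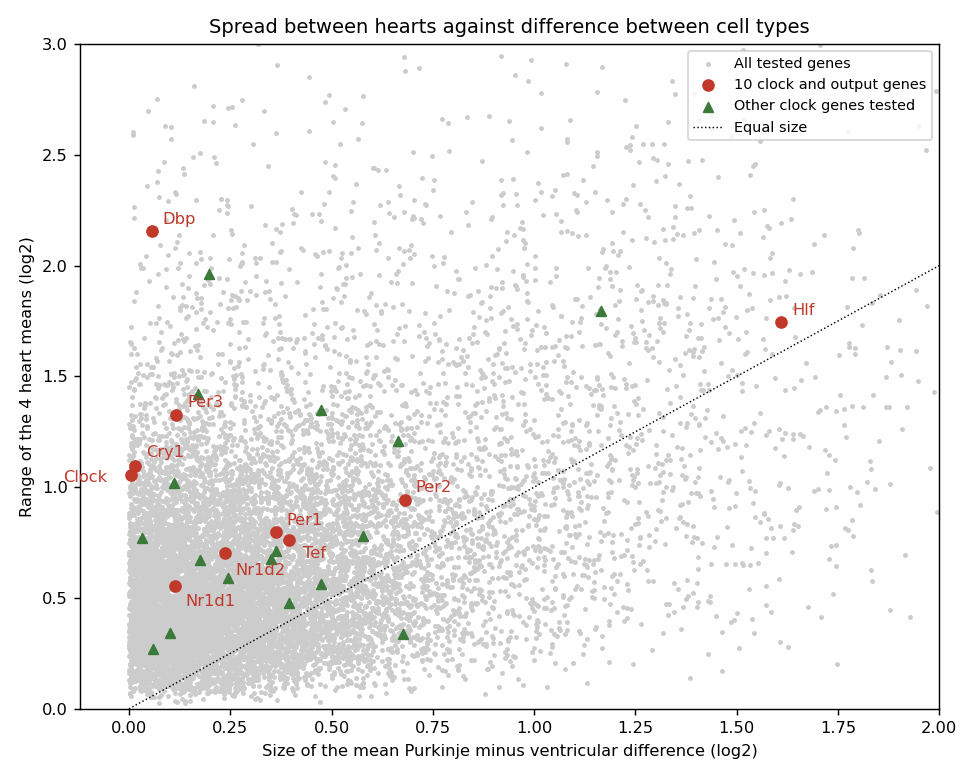
Range of the 4 heart means (log2) against the size of the mean Purkinje minus ventricular difference (log2), for all tested genes (grey), the 10 clock and output genes (red circles) and 17 other clock genes (green triangles), with 130 genes beyond the axes not drawn. The 10 genes lie above the dotted line of equal size, Dbp at a range of 2.16 and a difference of 0.06, and Hlf nearest the line at 1.75 and 1.61; without heart 1 Hlf lies below the line, at 0.30 and 1.97.

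Clock encodes the activator that pairs with BMAL1. Its brightest probe set read 342, 284, 685 and 517 on the Purkinje arrays of hearts 1 to 4, and 388, 312, 558 and 517 on the ventricular arrays. In both cell types it was lowest in heart 2 and highest in heart 3, and the cell types overlapped throughout. The difference between cell types was -0.01 ± 0.22 on the log2 scale (SD of the 4 paired differences) and the range between hearts was 1.05. Another Clock probe set kept this order in part, at 122, 105, 167 and 170 on Purkinje and 104, 92.9, 122 and 150 on ventricular arrays. A further one ran otherwise, with 130.5, 140, 99.8 and 87.7 on Purkinje and 119, 87.4, 72.1 and 75.2 on ventricular arrays, so the high values of hearts 3 and 4 are not a property of every Clock probe set. These 2 probe sets were higher in Purkinje cells in 4 of 4 hearts, by 0.259 ± 0.135 and 0.375 ± 0.248. Their ranges between hearts were 0.69 and 0.62. The small cell type difference of the brightest probe set was thus not shared by them. The Gapdh 3' to 5' ratio was also higher in hearts 3 and 4, and its part in the Clock signal was not tested.

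Arntl and Npas2, a paralogue of Clock, were not among the 10 and were tested. Arntl read 61.9, 12.7, 26.3 and 64.5 on Purkinje and 79.5, 25.6, 48.2 and 23.5 on ventricular arrays. It was lowest in heart 2 on the Purkinje arrays but in heart 4 on the ventricular arrays, with several signals near the limit of 19.9, and it passed neither the test between hearts (limma adjusted p = 0.212, range 1.96) nor that between cell types (log2 difference -0.20, SE 0.57, adjusted p = 0.878). Npas2 averaged 130 ± 19.2 in Purkinje cells and 93.3 ± 39.1 in ventricular myocytes (SD, n = 4 each) and passed neither test (limma adjusted p = 0.531 between hearts and 0.314 between cell types).

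The period genes encode repressors of the loop. Per1, which also responds to glucocorticoids, read 102, 115, 222 and 232 on the Purkinje arrays and 99.5, 135, 124 and 132 on the ventricular arrays. Its Purkinje signal in hearts 3 and 4 lay above every other array, while in heart 1 the cell types were nearly equal. On the same arrays the summed Purkinje markers were also highest in hearts 3 and 4. Their part in the Per1 signal was not tested. Glucocorticoid-responsive genes (11 genes without Per1) summed to 18347, 12887, 15528 and 13567 on Purkinje and 16994, 11100, 12347 and 11939 on ventricular arrays, highest in heart 1 in both cell types, where Per1 was lowest. The genes of this list did not all follow the sum. In both cell types Sgk1 was highest in heart 1, while Tsc22d3 was lowest there. Tsc22d3 read 574, 584, 1463 and 947 on Purkinje and 415, 476, 456 and 474 on ventricular arrays. The part of a glucocorticoid response in the Per1 signal was not tested. The 11 immediate early genes, which rise when tissue is dissociated, summed to 10765 to 12482 on Purkinje and 6991 to 10036 on ventricular arrays.

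Per2 was close to the signal limit. Its brightest probe set gave 47.7, 32.7, 42.3 and 47.8 on Purkinje arrays against 23.2, 45.9, 11.7 and 38.3 on ventricular arrays, and its 3 probe sets named different hearts as highest, so no order of the hearts can be read for it. Per3 gave 77.6, 241, 235 and 159 on Purkinje arrays and 118, 239, 104 and 171 on ventricular arrays. Heart 2 was highest in both cell types, and heart 3 was high on its Purkinje array alone. Of the 6 Per3 probe sets 4 were above the limit, and 3 of these 4 had heart 2 highest in both cell types. The high Purkinje value of heart 3 was in the brightest of these 4 alone. The others read 87.9, 43.6 and 9.4 on that array, against 134.8, 64.5 and 106.2 on the Purkinje array of heart 2.

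Cry1 encodes the cryptochrome that represses latest in the cycle. It read 108, 49.8, 109 and 55.2 on Purkinje arrays and 95.8, 49.6, 103 and 63.4 on ventricular arrays. Hearts 1 and 3 were high and hearts 2 and 4 low in both cell types, with no overlap between these 2 pairs of hearts. The difference between cell types was 0.02 ± 0.16 and the range between hearts 1.10 on the log2 scale. Cry2, the other cryptochrome gene and not among the 10, averaged 497 ± 104 in Purkinje cells and 423 ± 115 in ventricular myocytes (SD, n = 4 each), with a limma adjusted p of 0.343 between hearts and 0.571 between cell types.

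The REV-ERB genes encode the repressors of the side loop. Nr1d2 read 605, 957, 668 and 880 on Purkinje and 686, 1147, 877 and 951 on ventricular arrays. Heart 2 was highest and heart 1 lowest in both cell types, and the ventricular array was the higher one in 4 of 4 hearts (log2 difference -0.24 ± 0.12, SD of the paired differences). A second probe set put heart 4 highest in both cell types and the difference at 0.08 ± 0.18, so the lower Purkinje level rests on 1 probe set. Nr1d1 read 277, 292, 407 and 435 on Purkinje and 296, 258, 370 and 371 on ventricular arrays. It did not share the peak in heart 2: hearts 3 and 4 were the higher ones in both cell types, as for Clock and the Gapdh ratio, and its range of 0.55 was the smallest of the 10.

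The PAR bZIP output genes differed most among themselves. Dbp, whose transcript cycles strongly in many tissues, read 374, 1133, 277 and 548 on the Purkinje arrays and 388, 1193, 246 and 482 on the ventricular arrays. The order of the hearts was 2, 4, 1, 3 in both cell types, the highest was 4.10-fold over the lowest among Purkinje arrays and 4.85-fold among ventricular arrays, and the cell types differed by 0.06 ± 0.14 on the log2 scale. A second Dbp probe set gave 134, 407, 100.8 and 163 on Purkinje and 90.6, 396, 84.9 and 151 on ventricular arrays, with the same highest and lowest hearts. The range of 2.16 between hearts rests largely on heart 2 and is 0.98 without it.

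Dbp and Sphk2, which encodes sphingosine kinase 2, overlap at their 3' ends on opposite strands in the RefSeq annotation of GRCm38.p6. The description text in the authors' table names Sphk2 for the brighter Dbp probe set, and Dbp for the other. A Sphk2 probe set read 255, 767, 201 and 344 on Purkinje and 187, 712, 168 and 281 on ventricular arrays, and of all other genes tested it had the pattern most like that of Dbp. A second Sphk2 probe set ran the opposite way, with 127, 70.9, 154 and 133 on Purkinje and 115, 90.3, 136 and 120 on ventricular arrays, lowest in heart 2. Which gene's RNA each of these probe sets measured was not tested, but the Dbp pattern is also in the probe set whose description text names Dbp.

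**Figure D3:**
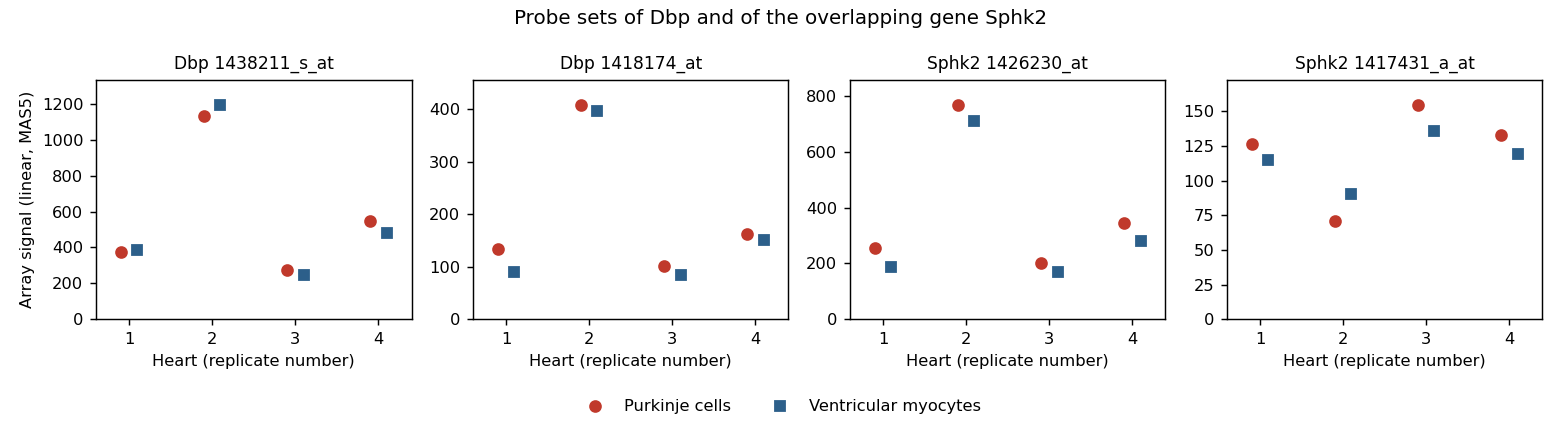
Array signal (linear, MAS5) by heart for the 2 probe sets of Dbp and the 2 of Sphk2, with Purkinje cells as circles and ventricular myocytes as squares; each point is 1 array. Heart 2 is highest in 3 of the probe sets and lowest in the last, where it read 70.9 in Purkinje cells and 90.3 in ventricular myocytes.

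Tef, the relative of Dbp first found in pituitary thyrotrophs, read 190, 304, 237 and 230 on Purkinje and 234, 420, 298 and 321 on ventricular arrays. Heart 2 was highest and heart 1 lowest in both cell types, and the Purkinje array was the lower one in 4 of 4 hearts, by 0.40 ± 0.09 on the log2 scale (SD of the paired differences). The other Tef probe sets gave differences of -0.03 and 0.05, so this lower level was not shared by them. The heart order was not shared by all either: the probe set whose description text names Tef read 112, 118, 178 and 212 on Purkinje and 122, 141, 156 and 160 on ventricular arrays, with heart 4 highest in both.

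Hlf was the gene of the 10 in which the cell types parted most. It gave 90.8, 302, 593 and 561 on the Purkinje arrays and 62.7, 141, 108 and 110 on the ventricular arrays. The Purkinje array was the higher one in 4 of 4 hearts, with a log2 difference of 1.61 ± 0.95 (SD of the paired differences), a 3.05-fold difference of the geometric means, but the value of heart 1 on its Purkinje array lay below 3 of the 4 ventricular ones. Without heart 1 the difference was 1.97 and the range between hearts 0.30, so there the cell types differed by more than the hearts. The order of the Purkinje arrays was that of the summed Purkinje markers (1310, 3653, 7369 and 7082). The part of those markers, or of other cells, in the Hlf signal was not tested. A second Hlf probe set gave 84.3, 182, 215 and 343 on Purkinje and 139, 92.3, 142 and 103 on ventricular arrays, with the Purkinje array lower in heart 1 and a difference of 0.65 ± 1.03. The description text in the authors' table names another gene, Pphn, for both Hlf probe sets, whereas its gene description column and the platform annotation name Hlf. In all, 7 of the 25 probe sets carry another gene's name in that text, those of Hlf, Nr1d2, 2 of Tef and 1 of Dbp.

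**Figure D4:**
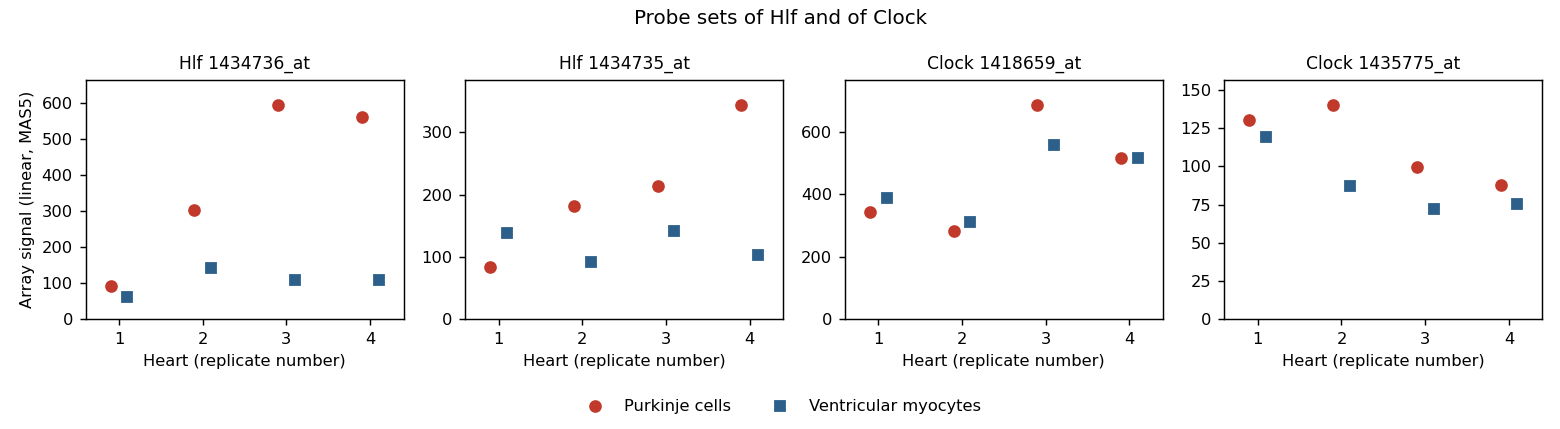
Array signal (linear, MAS5) by heart for the 2 probe sets of Hlf and for 2 of the 4 of Clock, with Purkinje cells as circles and ventricular myocytes as squares; each point is 1 array. The Hlf signal on Purkinje arrays reached 593 and 343 in the 2 probe sets while no ventricular array passed 142, and the 2 Clock probe sets order the hearts differently.

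The pattern of Dbp over hearts was compared with that of every other tested gene by the root mean square difference between their 8 log2 signals, each taken minus the mean of its cell type. Among 12317 genes the nearest were Sphk2 (0.14), Hlcs (0.36), Ccdc146 (0.36), Dus2 (0.37), Zswim4 (0.38), Cyp46a1 (0.38), Ccbe1 (0.39), Il15 (0.41), Fxyd6 (0.42) and Ctf1 (0.42). All 10 were highest in heart 2 in both cell types, which the choice by likeness to Dbp largely fixed in advance. Of the clock genes Ciart was place 164, Nr1d2 place 303, Tef place 330, Cry2 place 359 and Per3 place 602. Per2 was place 1724, Per1 place 8799, Nr1d1 place 9211 and Hlf place 10809, while Clock (11462) and Cry1 (11861) were among the least alike. So not all of the output, period and REV-ERB genes had a pattern near that of Dbp. The 8 arrays come from 4 hearts, so these places describe few independent points.

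Other clock genes were tested from a list of 21, of which 17 were above the limit, 2 were below it and 2 were not measured by a probe set of their own. That list was chosen with earlier results of these data known, so its shares are given as a description. Between hearts 4 of 17 passed (Btrc, Csnk1d, Nfil3 and Timeless; limma's moderated F), against 7.55% of all genes. Nfil3, which encodes the D-box repressor E4BP4, read 299, 196, 324 and 367 on Purkinje and 322, 153, 312 and 336 on ventricular arrays (limma adjusted p = 0.0287). Heart 2 was lowest in both cell types, where Dbp was highest. Ciart, which encodes an inhibitor of the CLOCK complex, read 55.6, 121, 60.1 and 64.3 on Purkinje and 58.5, 93.7, 46.9 and 27.1 on ventricular arrays. It was highest in heart 2 in both cell types but did not pass (limma adjusted p = 0.173 between hearts and 0.515 between cell types).

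The other 3 genes called between hearts did not single out heart 2. Btrc, a ubiquitin ligase subunit that acts on the period proteins, read 131, 191, 359 and 289 on Purkinje and 164, 190, 431 and 311 on ventricular arrays (limma adjusted p = 0.00577), with hearts 3 and 4 highest. Csnk1d, a kinase of the period proteins, was highest in heart 1 and lowest in heart 3 (limma adjusted p = 0.0296), and of its other 4 probe sets 1 was highest in heart 3 and 2 in heart 2 in both cell types. Timeless read 212, 191, 108 and 62.7 on Purkinje and 147, 66.0, 24.0 and 46.2 on ventricular arrays (limma adjusted p = 0.0409). On the same arrays the endothelial markers summed to 3835, 3927, 2633 and 1266 in Purkinje cells and 2125, 979, 621 and 720 in ventricular myocytes, also highest in heart 1 or 2, and their part in Timeless was not tested. The 4 called genes became 1 without Purkinje replicate 2 or 4, without ventricular replicate 2 or without heart 2, and 2 without Purkinje replicate 3, ventricular replicate 1, 3 or 4 or heart 1 or 3. Nfil3 was called without either array of heart 1 but not when any single array of heart 2, 3 or 4 was left out.

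Between cell types 0 of these 17 passed by limma without the heart as a block, against 2.96% of all genes. At an unadjusted p under 0.05 by limma there were 3 of 17, against 2711 of 12318 genes. Their median log2 difference was 0.06. With the heart as a block 3 passed, 1 higher and 2 lower in Purkinje cells, where 9.64% and 7.48% of all genes did. Timeless was the higher one (log2 difference 1.17, limma adjusted p = 0.02). Bhlhe40, which encodes the repressor DEC1, was lower (-0.68, 0.0133) and so was Csnk2a1, a casein kinase subunit gene (-0.47, 0.0246). Bhlhe40 averaged 417 ± 117 in Purkinje cells and 650 ± 31.0 in ventricular myocytes (SD, n = 4 each), with no overlap, and passed without the block too when Purkinje replicate 1 or heart 1 was left out.

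**Figure D5:**
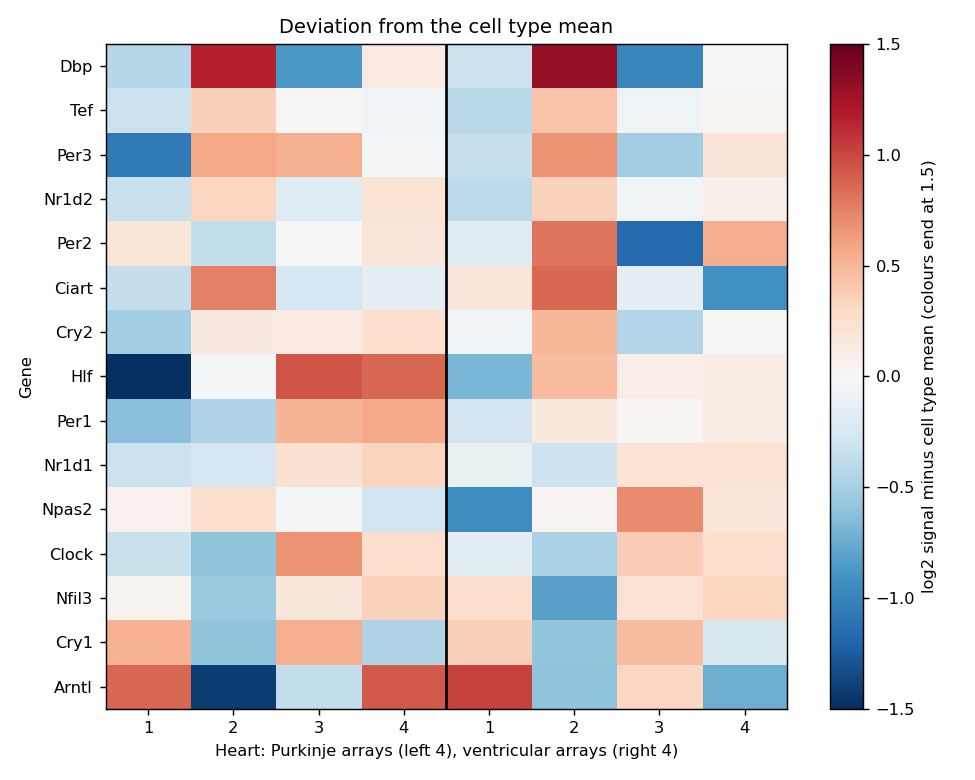
Log2 signal minus the mean of the same cell type for the 10 genes and for Ciart, Cry2, Npas2, Nfil3 and Arntl (rows), on the 4 Purkinje arrays (left) and the 4 ventricular arrays (right), hearts 1 to 4 in each; red is above and blue below the mean, and the colours end at 1.5. In heart 2 Dbp stands 1.17 and 1.30 above the mean of its cell type, while Clock, Nfil3, Cry1, Arntl and Nr1d1 stand below it in both. Per1, Per2 and Hlf stand below it on the Purkinje array alone.

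Promoter sequence was searched for the motifs of this loop in the RefSeq windows of GRCm38.p6, 250 bases before to 50 after a gene's start. Windows were held for 9 of the 10 genes. The motifs, on both strands, were the E-box CACGTG (in 7.15% of 32851 windows), its variant CACGTT (4.69%), the D-box as TTATGTAA or TTACGTAA (1.06%), the ROR element core as TAGGTCA or TGGGTCA, the site of REV-ERB (6.45%), and the cAMP response element TGACGTCA (1.79%), and no match overlapped another. An E-box was found in windows of Tef, Per1 and Cry1, a CACGTT in those of Cry1 and Nr1d1, D-boxes in that of Per3, and a cAMP response element in that of Hlf. None of these letters was found in the windows of Dbp, Nr1d2 or Clock. The windows below are shown because between them they hold the E-box, its variant, the D-box and the ROR element, and because heart 2 was the highest in both cell types for Per3 and Ciart and the lowest in both for Cry1 and Nfil3. In other hearts these genes did not all follow Dbp or mirror it: the brightest Per3 probe set stood 0.53 above its Purkinje mean in heart 3, where Dbp was lowest. The other Per3 probe sets above the limit did not stand above theirs there. Capitals mark the matches, which are the D-boxes of Per3, the CACGTT and E-box of Cry1, the 3 E-boxes of Ciart and the ROR element of Nfil3, some read on the other strand.
Per3, chr4:151044616-151044915, minus strand: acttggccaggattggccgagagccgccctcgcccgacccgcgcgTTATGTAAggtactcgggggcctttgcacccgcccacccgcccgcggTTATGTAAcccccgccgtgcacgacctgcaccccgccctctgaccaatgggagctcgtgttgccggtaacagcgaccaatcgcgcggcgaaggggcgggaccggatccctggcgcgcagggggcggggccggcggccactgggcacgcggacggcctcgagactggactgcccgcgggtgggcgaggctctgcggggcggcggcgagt
Cry1, chr10:85185005-85185304, minus strand: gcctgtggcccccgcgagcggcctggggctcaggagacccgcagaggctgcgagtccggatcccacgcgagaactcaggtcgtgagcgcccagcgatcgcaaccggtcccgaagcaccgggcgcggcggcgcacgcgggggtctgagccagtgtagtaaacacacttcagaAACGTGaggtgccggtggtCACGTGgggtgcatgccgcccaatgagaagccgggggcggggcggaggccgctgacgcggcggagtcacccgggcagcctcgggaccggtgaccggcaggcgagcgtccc
Ciart, chr3:95882179-95882478, minus strand: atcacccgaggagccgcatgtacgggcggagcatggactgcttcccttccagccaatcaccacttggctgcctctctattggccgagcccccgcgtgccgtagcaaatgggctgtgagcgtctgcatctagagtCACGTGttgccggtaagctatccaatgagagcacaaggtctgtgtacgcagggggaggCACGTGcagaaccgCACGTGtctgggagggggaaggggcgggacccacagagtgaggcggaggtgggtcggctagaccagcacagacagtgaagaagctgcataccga
Nfil3, chr13:52980990-52981289, minus strand: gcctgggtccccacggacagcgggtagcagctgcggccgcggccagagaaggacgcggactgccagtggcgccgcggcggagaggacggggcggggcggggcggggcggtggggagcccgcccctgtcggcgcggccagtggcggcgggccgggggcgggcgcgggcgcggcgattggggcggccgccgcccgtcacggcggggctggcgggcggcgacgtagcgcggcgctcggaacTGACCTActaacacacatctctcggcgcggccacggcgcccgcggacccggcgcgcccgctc
The Per3 D-boxes begin 205 and 158 bases before the start, the Cry1 E-box 60 and its CACGTT 79, the Ciart E-boxes 116, 58 and 44, and the Nfil3 element 12. A match is a string of letters and not a shown site of binding.

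Genes known to cycle under the clock in heart or in many tissues were the last group, 24 tested of 26 listed. This list too was chosen with earlier results of these data known, so its shares are given as a description. Between hearts 5 of 24 passed (limma's moderated F), against 7.55% of all genes, and none of these 5 had heart 2 as its highest. Tcap, a sarcomeric gene under clock control in mouse heart, read 2795, 4214, 4772 and 5065 on Purkinje and 2653, 4603, 5237 and 4946 on ventricular arrays (adjusted p = 0.00316 by limma). Nampt, which encodes the rate-limiting enzyme of NAD salvage, read 1142, 1973, 2370 and 2490.5 on Purkinje and 1306, 1943, 2380 and 2003.5 on ventricular arrays (limma adjusted p = 0.00622). Both were lowest in heart 1, whichever the cell type. Sgk1, a glucocorticoid-induced kinase gene, was highest there, at 1664, 856, 757 and 512 on Purkinje and 975.5, 339, 221 and 341 on ventricular arrays (limma adjusted p = 0.00501). The glucocorticoid-responsive sum, which holds Sgk1 and Cdkn1a, was highest in the same heart, and its part in these results was not tested. Cdkn1a, which encodes the cell cycle inhibitor p21, was lowest in heart 2 in both cell types (431 on the Purkinje and 131.5 on the ventricular array; adjusted p = 0.00483 by limma), and so was Pdk4, a kinase of pyruvate dehydrogenase (4017 on the Purkinje and 4688 on the ventricular array; adjusted p = 0.0476 by limma). Without heart 1 only Cdkn1a of the 5 passed, and Kcnh2, which was not among the 5, passed there too. Without heart 2 or ventricular replicate 2 the 5 became 3, and neither Cdkn1a nor Pdk4 passed. When 1 array or 1 heart was left out, Pdk4 passed only without ventricular replicate 1 or heart 3. With median centring, with no filter on low signals and with the mean of probe sets Pdk4 did not pass either.

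Between cell types 2 of the 24 passed without the heart as a block, and both were lower in Purkinje cells, against 1.02% of all genes. Kcnip2, which encodes the transient outward current subunit KChIP2 and whose transcript cycles in heart, read 712.5, 533, 661 and 678 on Purkinje arrays and 1156, 1089, 2122 and 2155 on ventricular arrays (log2 difference -1.27, SE 0.23, limma adjusted p = 0.0208). Alas1, which encodes the first enzyme of heme synthesis, averaged 702 ± 57.7 in Purkinje cells and 1047 ± 77.5 in ventricular myocytes (SD, n = 4 each; log2 difference -0.58, limma adjusted p = 0.0377). In both genes the groups did not overlap. With the block 12 passed, 5 higher and 7 lower in Purkinje cells, where 9.64% and 7.48% of all genes did. Without it, neither Kcnip2 nor Alas1 passed when Purkinje replicate 2 or 3 or ventricular replicate 3 or 4 was left out, or when heart 2, 3 or 4 was, and 5 genes passed without ventricular replicate 1, 4 without heart 1 and 3 without Purkinje replicate 1. Only Kcnip2 passed without Purkinje replicate 4 or ventricular replicate 2.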

How the data were processed

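RNA of sorted cells was amplified and hybridised to Affymetrix mouse arrays, per the labels' protocols. The deposited values are linear signal intensities computed by the authors with MAS5 (version not given in the sources used here), and each array's trimmed mean was 150.001. The authors' deposited table also holds a p-value per probe set, which equals that of a paired test to within 5.0e-10 and was not used otherwise. Symbols came from the platform annotation (34958 probe sets with 1 gene, 932 with several, 9211 with none), since the authors' table has no symbol column, and 64 control probe sets were left out. Signals were taken to log2 (10 signals of 0 set to 0.1), each gene was represented by its brightest probe set, and genes above the 40th percentile of mean signal were tested.

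limma 3.58.1 in R 4.3.3 (lmFit and eBayes with a mean-variance trend, Benjamini-Hochberg adjustment over 12318 genes, threshold 0.05) gave every adjusted p. Cell types were compared without the heart as a block. Hearts were compared by a moderated F over 4 hearts with cell type as a term, so a heart difference holds the animal and any handling of that heart together, and the number of arrays limits the precision. Same-numbered arrays deviated together (r across genes 0.381, 0.234, 0.267 and 0.275, each the best match of its number). Some unmatched arrays came close, with r of 0.0898 and 0.197 between hearts 1 and 2, and 0.21 and 0.225 between hearts 3 and 4. Between hearts 1 or 2 and hearts 3 or 4, r was always negative. The number is thus set apart only narrowly within these 2 pairs of hearts. The series' design names 4 hearts for both cell types, so the shared number was read as the heart; the correlation itself would also arise from a shared day or batch. Alternatives were quantile normalization, median centring, other filters, 16 added before log2, averaging all probe sets of a gene, no trend, no cell type term, the block and leaving out arrays or hearts.

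The 10 genes and all lists were chosen with earlier results of these data known. Named were all 10 genes with their probe sets, Arntl, Npas2, Cry2, Ciart, Nfil3 and up to 6 other clock genes that passed, up to 8 clock-controlled genes between hearts and up to 4 between cell types, and the 10 genes most like Dbp.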

Additional observations from a re-analysis of the deposited data

Results flagged for a closer look

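Of 54 groups of 4 arrays examined (27 genes in each cell type), 3 held 1 array far from the others by Dixon's criterion, and chance marks about 1 in 20 such groups. Cry2 read 343.8 on the Purkinje array of heart 1, below the other 3 Purkinje arrays. Bhlhe41, which encodes the repressor DEC2, read 16.1 on the Purkinje array of heart 3. Nfil3 read 152.7 on the ventricular array of heart 2, where its Purkinje array was also the lowest of its group.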

How the results depend on the processing

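Between cell types 365 of all genes passed, against 160 with quantile normalization, 2603 with median centring, 126 without a mean-variance trend, 2108 with the replicate block, and 6 to 957 when an array or a heart was left out (6 without heart 3, 957 without ventricular replicate 1). Clock-controlled genes that passed numbered 2, against 1 with quantile normalization, 12 with median centring, 1 with the mean of probe sets, 0 without the trend (2499 of all genes at an unadjusted p under 0.05 in limma), 12 with the replicate block and 0 to 5 with leave-outs. Other clock genes numbered 0, against 4 with median centring, 3 with the replicate block and 0 to 1 with leave-outs.

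Between hearts 930 genes passed, against 471 with the mean of probe sets, 0 without the trend, 1 without the cell type term and 356 to 942 with leave-outs. Other clock genes numbered 4, against 1, 0 and 0 under those 3 settings and 1 to 3 with leave-outs. Clock-controlled genes numbered 5, against 0 without the trend or the cell type term and 2 to 7 with leave-outs. The cause was not tested beyond the settings' own construction.

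The same heart was highest in both cell types in 7 of the 10 genes, and in 7 with every leave-out. With quantile normalization it was so in 5, with median centring in 5 and with the mean of probe sets in 3. The count of 3 is no higher than the 36.2% of all genes read from their brightest probe sets. The heart range was the wider in 7 to 10 with leave-outs. Of 190 recomputed differences and ranges of the 10 genes, 149 moved by less than the spread between hearts and 41 by more. Signals near the limit of 19.9, as for Per2 and Arntl, hold little above background.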
